A study of Mus musculus with 9 samples.

Results

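Bdnf, Ntf3 and Gdnf, which encode neurotrophic factors, and Ngfr, Ntrk2, Gfra1, Gfra2 and Ret, which encode their receptors, were taken by name from a table of normalized expression values in a study of muscle injury. These 8 genes were all found among the 26214 genes listed. The study compared stromal cells of subcutaneous adipose tissue (ScAT) with those of skeletal muscle on day 1 after an injection into the quadriceps of young adult male C57BL/6J mice. NaCl left the muscle uninjured and glycerol damaged its fibres. Adipose stromal cells (ASCs, 3 libraries) came from the ScAT of NaCl-injected mice, fibro-adipogenic progenitors (FAPs, 2 libraries) from the quadriceps of NaCl-injected mice, and injured FAPs (3 libraries) from glycerol-injected quadriceps. These cells were depleted of CD31+ and CD45+ cells and then selected for Sca-1 with magnetic beads, so that each library holds RNA of a sorted population and not of a single cell type. A further library of CD31+CD45+ cells, the endothelial and leukocyte fraction of glycerol-injected quadriceps, consists of a single library and was left out of the tests.

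The libraries of a group were prepared from a pool of cells of 3 animals. P-values therefore measure the spread between libraries, which may be technical. The number of reads recovered from the values was 27481573, 27349184 and 27402102 in ASCs, 24052508 and 24164447 in FAPs, 26968235, 26698572 and 27028114 in injured FAPs and 13091077 in CD31+CD45+ cells. A count of 3 reads corresponded to a value of 2.29 in the library where it was lowest and of 4.71 where it was highest, and values near this level carry a large counting error.

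Neurotrophins are secreted growth factors that keep sensory and motor neurons alive and shape their synapses. Brain-derived neurotrophic factor, the product of Bdnf, signals through the tyrosine kinase receptor TrkB (Ntrk2), and neurotrophin-3 (Ntf3) mainly through TrkC, whereas the receptor p75 (Ngfr) binds all neurotrophins and also their uncleaved precursors. Glial cell line-derived neurotrophic factor (Gdnf) belongs to another family. It binds the membrane-anchored co-receptor GFRα1 (Gfra1), and the complex activates the tyrosine kinase Ret, while GFRα2 (Gfra2) prefers the related ligand neurturin. In skeletal muscle these factors are known as signals from muscle tissue and Schwann cells to motor and sensory nerve endings, and Gdnf in particular as a factor that promotes innervation of the neuromuscular junction.

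The genes followed several orders over the groups. Bdnf and Gdnf were lowest in uninjured FAPs and higher in ASCs and injured FAPs, whereas Ntf3 and Ngfr were highest in uninjured FAPs among these groups. Ntrk2 was high in ASCs and uninjured FAPs and low in injured FAPs. The GDNF receptor genes Gfra1, Gfra2 and Ret were low in ASCs and high in FAPs with or without injury. The plot of normalized values by library shows these orders.

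**Figure D1:**
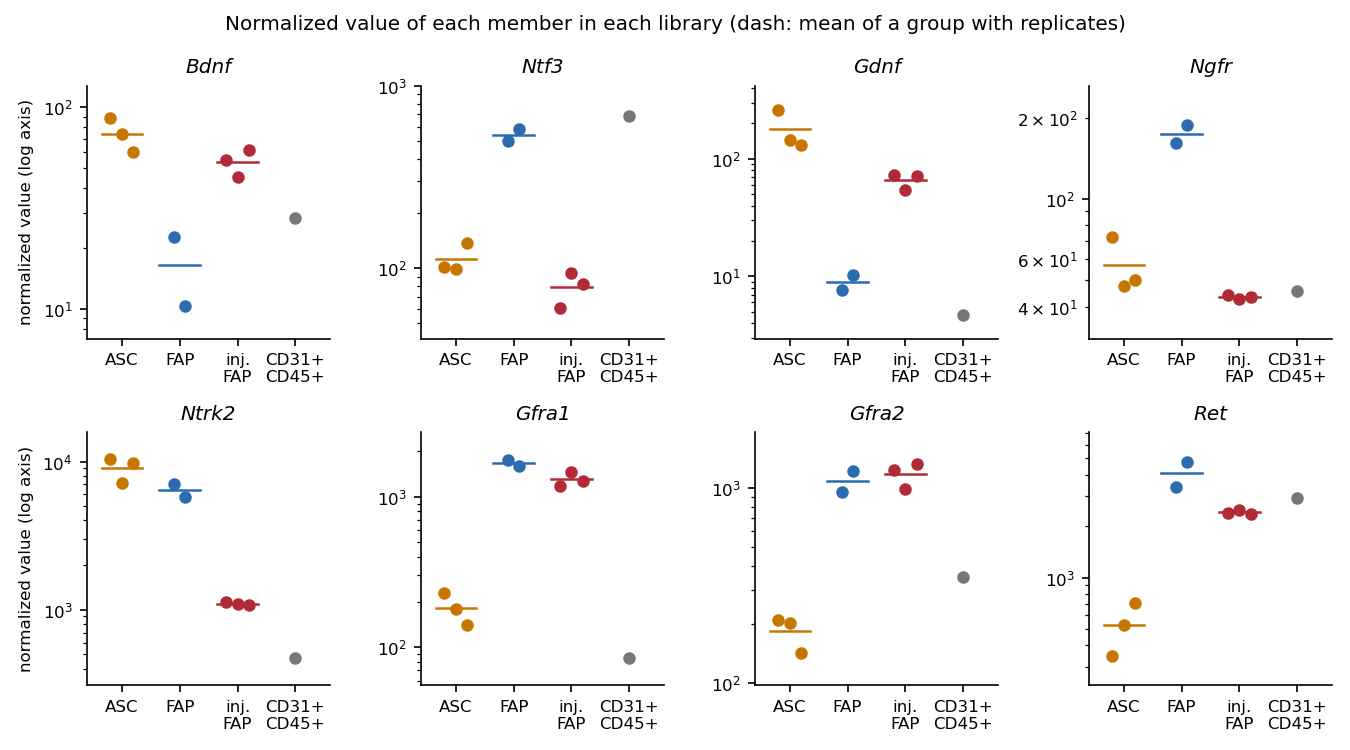
Normalized value (log axis) of each of the 8 genes in each of the 9 libraries, with points for libraries, a dash for the mean of each group with replicates and a separate axis for each gene. Gdnf lies at 7.61 and 10.3 in FAPs and at 54.2 or more in all ASC and injured FAP libraries. Ntrk2 lies between 1072 and 1119 in injured FAPs and at 5759.5 or more in every ASC and FAP library.

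Genes were called differentially expressed where the adjusted p was below 0.05 and the log2 fold change was above 0.58 or below -0.58, on the scale of log2(value + 1), which understates the change of genes with low values. All 8 genes passed the filter, a mean of 10 or more in the 8 libraries tested, and p-values were adjusted over the 13601 genes that passed it. Between ASCs and FAPs, 7 of the 8 genes were differentially expressed, 2 higher and 5 lower in ASCs, while 47.2% of all genes tested were differentially expressed. Between injured FAPs and FAPs, 6 of the 8 were, 2 higher and 4 lower after injury, against 52.6% of all genes tested. Between injured FAPs and ASCs, 5 of the 8 were, 3 higher and 2 lower in injured FAPs, against 50.8% of all genes tested. Every pair of these comparisons shares libraries, so that they are not independent of each other.

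**Figure D2:**
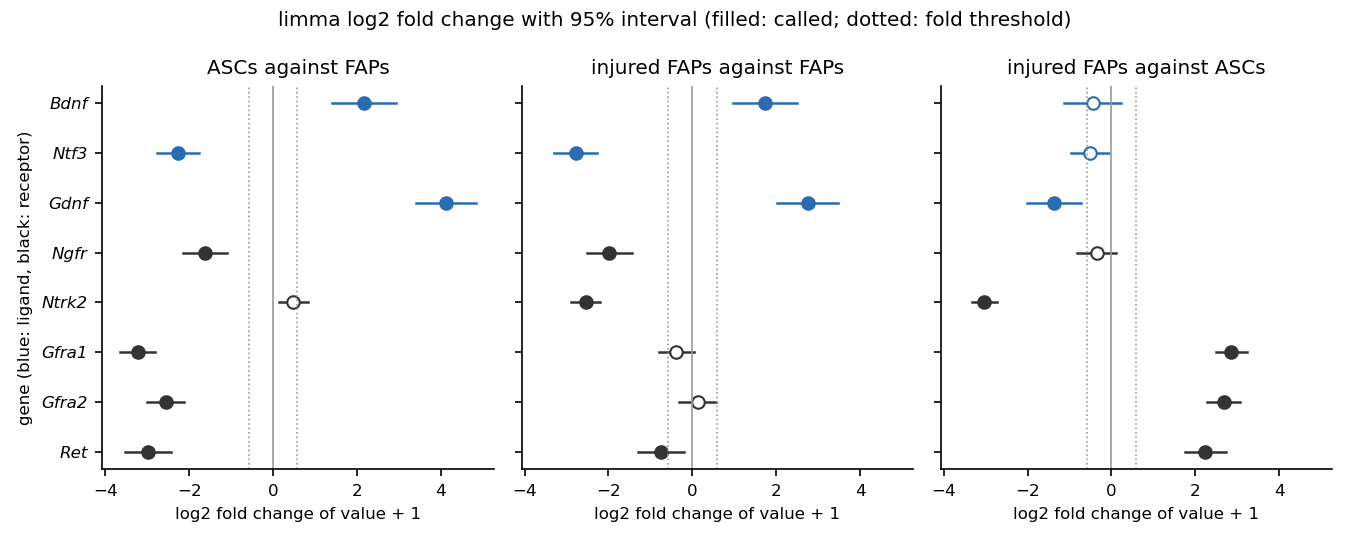
Log2 fold change of value + 1 (horizontal axis) with its 95% interval for each gene in the 3 comparisons, by limma over 3 ASC, 2 FAP and 3 injured FAP libraries. Filled points were differentially expressed, and dotted lines mark the fold threshold of 0.58; Gdnf in ASCs against FAPs has the largest fold change of the 24 shown, 4.12, with an interval from 3.40 to 4.84.

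Bdnf (chr2:109674700-109727007, plus strand, GRCm38, the build also called mm10) was expressed at low levels throughout. Its normalized values were 88.3, 73.6 and 60.3 in ASCs, 22.8 and 10.3 in FAPs, and 54.9, 44.9 and 61.8 in injured FAPs. Each FAP library lay below each library of the other groups, while the ranges of ASCs and injured FAPs overlapped. The FAP values rested on 24 and 11 reads. Bdnf was higher in ASCs than in FAPs by a log2 fold change of 2.17 (SE 0.344, adjusted p = 0.000362, limma with Benjamini-Hochberg adjustment). In injured FAPs it was higher than in FAPs by 1.73 (SE 0.344, adjusted p = 0.00133, limma with Benjamini-Hochberg adjustment). With each library left out in turn, these fold changes ranged from 1.64 to 2.71 and from 1.19 to 2.26. The difference between injured FAPs and ASCs, a log2 fold change of -0.45 with a 95% interval from -1.13 to 0.24, did not pass the test. In bulk RNA of this kind, fewer cells of a type and less RNA per cell cannot be told apart, which applies to every difference given here.

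Gdnf (chr15:7810846-7837575, plus strand) differed more widely. It stood at 262, 144 and 132 in ASCs, 7.61 and 10.3 in FAPs, and 72.2, 54.2 and 71.7 in injured FAPs. The 3 groups did not overlap, with ASCs highest and FAPs lowest, and the FAP values rested on 8 and 11 reads. The log2 fold change of ASCs against FAPs was 4.12 (SE 0.323, adjusted p = 3.22e-06, limma with Benjamini-Hochberg adjustment). Injured FAPs exceeded FAPs by 2.75 (SE 0.323, adjusted p = 3.98e-05, limma with Benjamini-Hochberg adjustment) and remained below ASCs, with a log2 fold change of -1.37 (SE 0.289, adjusted p = 0.00178, limma with Benjamini-Hochberg adjustment). These fold changes depend on the value added before the logarithm, and with 8 in place of 1 they were 3.40 in ASCs and 2.12 in injured FAPs against FAPs. On the linear scale ASCs had a mean of 179 ± 72.0 (SD, n = 3), FAPs of 8.98 ± 1.94 (SD, n = 2) and injured FAPs of 66.0 ± 10.2 (SD, n = 3). The CD31+CD45+ library had a Gdnf value of 4.71, which equals 3 reads.

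Because Bdnf and Gdnf were higher than in FAPs in the same groups, the 250 bases upstream of their start sites were searched for binding motifs of factors that respond to cell stimulation. RefSeq windows (GRCm38.p6) were found for 6 of the 8 genes, Bdnf, Ntf3, Gdnf, Ngfr, Ntrk2 and Gfra1, with 14 windows in all, 7 of them from the alternative first exons of Bdnf. The searches on both strands covered the cAMP response element TGACGTCA, its core TGACG and the AP-1 element TGANTCA, where N is any base. The full cAMP response element was in 0 of the 14 windows and in 1.55% of the 32851 windows of all genes. Its core was in 2 of the 14 windows, a single window each of Bdnf and Gdnf, and in 17.8% of all windows. The AP-1 element was in 1 of the 14 windows, a Bdnf window, and in 6.75% of all windows. No match of a motif overlapped a match of another. The windows that held a match are given below with the matching bases in capitals, as a description of the letters and not as sites shown to be bound. Gene-level values do not tell which first exon the Bdnf reads came from.
Bdnf, chr2:109676782-109677031, plus strand, AP-1 element from base -152 to -146: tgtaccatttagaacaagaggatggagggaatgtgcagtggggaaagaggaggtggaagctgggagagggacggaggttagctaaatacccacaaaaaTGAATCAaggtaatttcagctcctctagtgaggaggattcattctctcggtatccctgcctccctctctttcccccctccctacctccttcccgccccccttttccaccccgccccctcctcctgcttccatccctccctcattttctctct
Bdnf, chr2:109692186-109692435, plus strand, core element from base -35 to -31: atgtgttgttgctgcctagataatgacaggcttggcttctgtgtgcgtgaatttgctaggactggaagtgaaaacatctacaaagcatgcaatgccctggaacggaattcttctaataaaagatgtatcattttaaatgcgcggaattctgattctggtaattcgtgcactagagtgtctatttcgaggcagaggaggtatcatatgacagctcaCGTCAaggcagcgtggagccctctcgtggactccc
Gdnf, chr15:7809798-7810047, plus strand, core element from base -50 to -46: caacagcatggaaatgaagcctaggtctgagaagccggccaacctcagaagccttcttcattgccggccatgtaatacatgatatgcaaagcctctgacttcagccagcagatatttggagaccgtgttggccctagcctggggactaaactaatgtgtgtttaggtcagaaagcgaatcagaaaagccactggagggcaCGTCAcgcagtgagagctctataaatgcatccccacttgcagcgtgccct

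Ntf3 (chr6:126101412-126166910, minus strand) ran against the other ligand genes in the comparisons with FAPs. Its values were 101, 98.5 and 137 in ASCs, 499 and 581 in FAPs, and 60.4, 93.8 and 82.4 in injured FAPs. Both FAP libraries lay far above the 6 others, and each injured FAP library lay below each ASC library. Ntf3 was lower in ASCs than in FAPs by a log2 fold change of -2.27 (SE 0.228, adjusted p = 1.69e-05, limma with Benjamini-Hochberg adjustment). It was lower in injured FAPs than in FAPs by -2.78 (SE 0.228, adjusted p = 3.84e-06, limma with Benjamini-Hochberg adjustment), which took its mean from 540.3 ± 58.1 (SD, n = 2) to 78.9 ± 17.0 (SD, n = 3). Between injured FAPs and ASCs the difference was -0.51 (adjusted p = 0.0466, limma with Benjamini-Hochberg adjustment), short of the fold threshold. That last difference passed both thresholds without ASC replicate 2 (-0.60, adjusted p = 0.0374, limma with Benjamini-Hochberg adjustment), without injured FAP replicate 2 (-0.65, adjusted p = 0.0326, same method) and with quantile normalization (-0.68, adjusted p = 0.00842, same method). It was weaker in other settings, down to -0.33 (adjusted p = 0.186, limma with Benjamini-Hochberg adjustment) without injured FAP replicate 1.

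Among the neurotrophin receptors, Ngfr (chr11:95568818-95587735, minus strand) had values of 72.5, 47.6 and 50.2 in ASCs, 161 and 187 in FAPs, and 43.9, 42.6 and 43.5 in injured FAPs. FAPs were highest, and injured FAPs lay just below the lowest ASC library with a spread of 0.667 (SD, n = 3). The log2 fold change was -1.62 in ASCs against FAPs (SE 0.237, adjusted p = 0.000218, limma with Benjamini-Hochberg adjustment) and -1.98 in injured FAPs against FAPs (SE 0.237, adjusted p = 4.7e-05, limma with Benjamini-Hochberg adjustment). The difference of -0.36 between injured FAPs and ASCs, with a 95% interval from -0.83 to 0.12, did not pass the test.

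Ntrk2 (chr13:58806569-59133970, plus strand) encodes the full-length TrkB as well as truncated forms without the kinase domain, which a value per gene does not separate. Its values were 10344, 7134 and 9722 in ASCs, 7085 and 5759.5 in FAPs, and 1119, 1099.7 and 1072 in injured FAPs. Injured FAPs were low in all 3 libraries, with a mean of 1097 ± 23.8 (SD, n = 3), while FAPs had 6422 ± 937 (SD, n = 2) and ASCs 9067 ± 1702 (SD, n = 3). The fall after injury had a log2 fold change of -2.54 (SE 0.155, adjusted p = 7.73e-07, limma with Benjamini-Hochberg adjustment), and injured FAPs differed from ASCs by -3.03 (SE 0.139, adjusted p = 6.13e-08, limma with Benjamini-Hochberg adjustment). The lowest ASC library and the highest FAP library were close, and ASCs exceeded FAPs by 0.49 (SE 0.155, adjusted p = 0.0199, limma with Benjamini-Hochberg adjustment), short of the fold threshold. This difference depended on single libraries and on the scaling. It passed both thresholds without ASC replicate 2 (0.65, adjusted p = 0.000794, limma with Benjamini-Hochberg adjustment) and without FAP replicate 1 (0.64, adjusted p = 0.0244, same method), and it changed sign with quantile normalization (-0.16, adjusted p = 0.269, same method). Without FAP replicate 2 it was 0.34 (adjusted p = 0.185, limma with Benjamini-Hochberg adjustment). Annotated transcripts of either strand lie within Ntrk2, and antisense transcripts within Bdnf and Gfra1. Since the strand setting of the read counting was not stated, reads of these could not be told apart from those of the genes.

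Of the GDNF receptors, Gfra1 (chr19:58235604-58455909, minus strand) had values of 228, 179 and 139 in ASCs, 1766 and 1609.7 in FAPs, and 1177, 1458 and 1272 in injured FAPs. ASCs were far below the rest, and the highest injured FAP library lay below the lower FAP library. Gfra1 was lower in ASCs than in FAPs by a log2 fold change of -3.23 (SE 0.186, adjusted p = 4.49e-07, limma with Benjamini-Hochberg adjustment), which equals 9.27 times by the means. Against ASCs it was higher in injured FAPs by 2.85 (SE 0.166, adjusted p = 2.63e-07, limma with Benjamini-Hochberg adjustment). The change of -0.38 between FAPs without and with injury, with a 95% interval from -0.79 to 0.04, did not pass the test.

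Gfra2 (chr14:70890120-70979838, plus strand) stood at 209, 204 and 142 in ASCs, 949.9 and 1218 in FAPs, and 1241, 985 and 1323 in injured FAPs. The FAP and injured FAP libraries overlapped, and all 5 lay above the 3 ASC libraries. The log2 fold change was -2.55 in ASCs against FAPs (SE 0.199, adjusted p = 3.07e-06, limma with Benjamini-Hochberg adjustment) and 2.68 in injured FAPs against ASCs (SE 0.178, adjusted p = 5.98e-07, limma with Benjamini-Hochberg adjustment). The difference of 0.13 between injured FAPs and FAPs, with a 95% interval from -0.32 to 0.57, did not pass the test, and it was -0.05 without FAP replicate 1.

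Ret (chr6:118151745-118197718, minus strand) had values of 348, 529 and 713 in ASCs, 3414 and 4774 in FAPs, and 2382, 2489 and 2354 in injured FAPs. The 3 groups did not overlap, with FAPs highest and ASCs lowest, and the injured FAP libraries lay close together while the FAP libraries were far apart. Ret was lower in ASCs than in FAPs by a log2 fold change of -2.99 (SE 0.248, adjusted p = 4.69e-06, limma with Benjamini-Hochberg adjustment) and higher in injured FAPs than in ASCs by 2.24 (SE 0.222, adjusted p = 9.43e-06, limma with Benjamini-Hochberg adjustment). After injury it was lower than in FAPs by -0.75 (SE 0.248, adjusted p = 0.0221, limma with Benjamini-Hochberg adjustment). That last call rested on single libraries. It was lost without FAP replicate 2 (-0.50, adjusted p = 0.199, limma with Benjamini-Hochberg adjustment), without injured FAP replicate 1 (-0.74, adjusted p = 0.0527, same method) and without injured FAP replicate 3 (-0.73, adjusted p = 0.0593, same method).

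To set the genes beside each other, values were divided by the length of their merged exons in kb. The order depends on this length, which for Ntrk2, a gene with many isoforms, was 19292 bases against 6763 for Ret. Which forms were present was not tested. In ASCs the order of these levels was led by Ntrk2, at 470.0 ± 88.2 per kb (SD, n = 3), far from Ret at 78.4 ± 27.0, Ntf3 at 65.5 ± 12.4, Gfra2 at 52.3 ± 10.6, Gdnf at 48.8 ± 19.6 and Gfra1 at 33.2 ± 8.10. From Ret to Gfra1 each gene overlapped the next in its range over libraries. Ngfr at 16.5 ± 3.97 and Bdnf at 11.9 ± 2.25 were lowest in ASCs and overlapped each other.

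In FAPs the order per kb was headed by Ret, at 605 ± 142 per kb (SD, n = 2), whereas the normalized values not divided by length had Ntrk2 above Ret in both libraries. Ntrk2 at 333 ± 48.6, Ntf3 at 315 ± 33.9, Gfra1 at 308 ± 20.2 and Gfra2 at 306 ± 53.6 followed without a gap between neighbours, then Ngfr at 50.5 ± 5.44. Bdnf at 2.67 ± 1.42 and Gdnf at 2.44 ± 0.528 per kb were at the bottom of the order in FAPs and overlapped. In injured FAPs, Ret at 356 ± 10.5 and Gfra2 at 334 ± 49.9 per kb (SD, n = 3) overlapped at the top of the order, above Gfra1 at 238 ± 26.1. Below them came, with no overlap between neighbours, Ntrk2 at 56.8 ± 1.23, Ntf3 at 46.0 ± 9.89, Gdnf at 18.0 ± 2.78, Ngfr at 12.6 ± 0.193 and Bdnf at 8.67 ± 1.36.

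The ratio of Ntrk2 to Ret per kb condenses the contrast between the receptor kinases. It was 10.4, 4.73 and 4.78 in ASCs, 0.728 and 0.423 in FAPs, and 0.165, 0.155 and 0.160 in injured FAPs. Per kb, Ntrk2 thus exceeded Ret in every ASC library and lay below it in all FAP and injured FAP libraries, while without division by length it lay below Ret, of these groups, only in injured FAPs. The ratio of Ntf3 to Gdnf per kb, a measure among the ligands, was 0.829, 1.47 and 2.23 in ASCs, 141 and 120.4 in FAPs, and 1.79, 3.71 and 2.46 in injured FAPs. Of these groups, it was highest in both FAP libraries, where Gdnf rested on few reads, and the ranges of ASCs and injured FAPs overlapped. In the CD31+CD45+ library, where Gdnf had 3 reads, the ratio was 311.

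**Figure D3:**
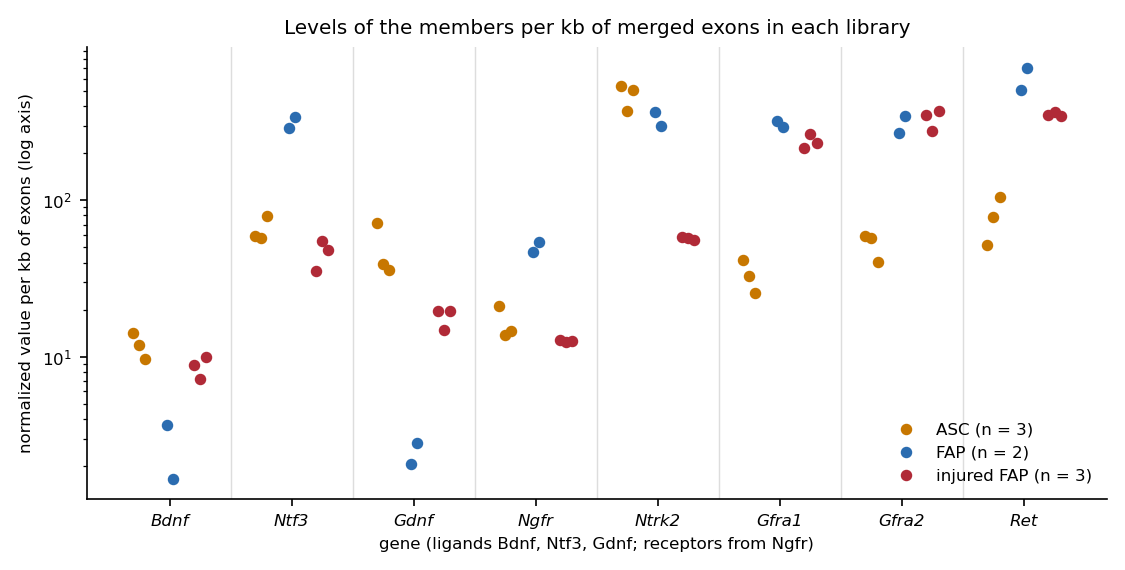
Normalized value per kb of merged exons (log axis) of each gene in each ASC, FAP and injured FAP library, with a point for each library. Ntrk2 lies between 369.8 and 536 per kb in ASCs and between 55.5 and 58.0 in injured FAPs, and Ret lies between 51.4 and 105 in ASCs and between 348 and 706 in FAPs and injured FAPs.

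The genes most like each member were sought by Pearson's r of log2(value + 1) over the 8 libraries, among 11643 other genes with a mean of 50 or more. The libraries fall into 3 groups, so that r describes mainly the 3 group levels, and no p is given. Closest to Bdnf were Chchd2, Gclm and Nab1 (r from 0.984 to 0.985) and closest to Gdnf were Rras2, Ppp2r2d and Atp6v1a (0.995 to 0.996). Among those nearest to Ntf3 were Pdzd7 and Rftn2 (0.991 to 0.992), and the nearest to Ngfr were Lmo7, Crispld2 and Ecrg4 (0.994 to 0.996). Ntrk2 was matched most closely by Cnrip1, Ccpg1 and Snx29 (0.998 to 0.999). Gfra1 was nearest to Myo1d, Col11a1 and Ggta1 (0.994 to 0.997), Gfra2 to Trpm6, Gnb4 and Chodl (0.993 to 0.995) and Ret to genes that included Fblim1 and Arhgef40 (0.995 to 0.998). Among the nearest genes, the mean of Ccpg1 went from 4316 in ASCs and 3396 in FAPs to 1189 in injured FAPs, and that of Col11a1, a fibrillar collagen, was 17.1 in ASCs, 2146 in FAPs and 1493 in injured FAPs.

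Other genes of these pathways were followed in 5 lists with 55 genes, of which 46 passed the filter. In ASCs against FAPs, 8 of the 46 were higher and 16 lower, with a median log2 fold change of -0.12 against 0.00 over all genes tested, and 47.2% of all genes tested were differentially expressed in either direction. In injured FAPs against FAPs, 13 were higher and 19 lower, with a median of -0.28 against -0.05 over all genes tested, of which 52.6% were differentially expressed. In injured FAPs against ASCs, 14 were higher and 12 lower, with a median of -0.03 against 0.02 over all genes tested, of which 50.8% were differentially expressed. In both comparisons of injured FAPs the higher genes included Nrg1 and Vgf, which passed the filter only through injured FAPs. The plot of the pathway lists shows each of these genes.

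**Figure D4:**
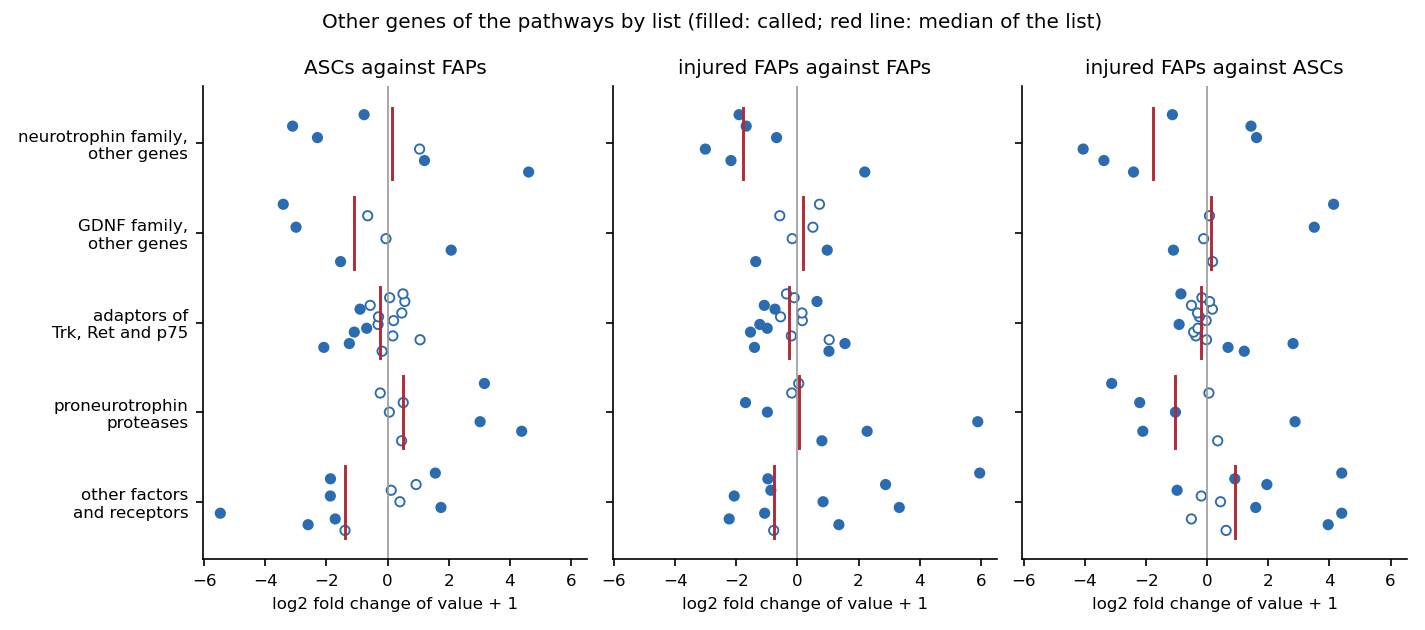
Log2 fold change of value + 1 (horizontal axis) of the 46 tested pathway genes in 5 lists and 3 comparisons, with a point for each gene, filled where it was differentially expressed, and a red line at the median of each list. In the list of adaptors all 16 genes were tested, and 9 of them were differentially expressed in injured FAPs against FAPs, 3 higher and 6 lower.

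Of the other neurotrophin family genes, 6 of 9 were tested. Ntrk3, the receptor of neurotrophin-3, had values of 395, 203 and 293 in ASCs, 122 and 156 in FAPs, and 22.8, 6.97 and 25.9 in injured FAPs, a log2 fold change of -3.01 in injured FAPs against FAPs (adjusted p = 0.000309, limma with Benjamini-Hochberg adjustment). Ntrk3 was thus low after injury, as was Ntrk2, and the FAP libraries lay below all ASC libraries without passing the test. The sorting receptor genes Sort1, Sorcs2 and Sorl1, whose products bind precursor neurotrophins or traffic their receptors, were lower in injured FAPs than in FAPs by -1.91, -0.68 and -1.68. They were lower in ASCs than in FAPs as well, by -0.77, -2.30 and -3.11. The genes Ntf5, Sorcs1 and Sorcs3 did not pass the filter.

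Of 9 other genes of the GDNF family, 6 were tested. Artn, a ligand of GFRα3, was at 47.4, 47.6 and 52.7 in ASCs, 146 and 143 in FAPs, and 50.2, 68.2 and 50.3 in injured FAPs, with the highest values in FAPs and log2 fold changes of -1.54 in ASCs and -1.36 in injured FAPs against FAPs. The genes of the alternative GDNF receptors NCAM (Ncam1) and syndecan-3 (Sdc3) were low in ASCs, like Gfra1, Gfra2 and Ret. Ncam1 had values of 72.5, 43.0 and 74.1 in ASCs, 478 and 516 in FAPs, and 712, 697 and 712 in injured FAPs. Sdc3 had values of 259.5, 721 and 147 in ASCs, 3050.5 and 3419 in FAPs, and 5557, 5202 and 5238 in injured FAPs. In ASCs against FAPs the log2 fold change was -3.00 for Ncam1 and -3.41 for Sdc3, with adjusted p-values of 1.91e-06 and 0.000165 (limma with Benjamini-Hochberg adjustment). For both genes every injured FAP library lay above both FAP libraries, but the log2 fold changes of 0.51 and 0.72 did not pass the test. The fit pools the variance over all groups, so for Sdc3 it includes the wide spread among ASCs. Gdf15, whose product signals through Ret by way of the brainstem receptor GFRAL, was higher than in FAPs both in ASCs (2.08) and in injured FAPs (0.98), while Gfral was at 0 in all 9 libraries. Neurturin (Nrtn), the preferred ligand of GFRα2, ranged from 11.3 to 27.3 in the 8 libraries, and the test found no difference between groups in Nrtn or Gfra4. The genes Pspn, Gfra3 and Gfral did not pass the filter.

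The 16 adaptors that connect Trk receptors, Ret and p75 to signalling were all tested. In ASCs against FAPs 0 were higher and 5 lower, Frs3, Plcg1, Gab1, Dok4 and Dok5, where 47.2% of all genes tested were differentially expressed. In injured FAPs against FAPs 3 were higher, Sh2b2, Dok5 and Bex3, and 6 lower, Frs3, Plcg1, Gab1, Gab2, Sh2b1 and Dok4, where 52.6% of all genes tested were differentially expressed. In injured FAPs against ASCs 3 were higher, Dok4, Dok5 and Bex3, and 2 lower, Gab2 and Traf6, where the share of all genes tested was 50.8%. Bex3, a partner of p75, had values of 269, 271 and 287 in ASCs, 329 and 296 in FAPs, and 661, 604 and 657 in injured FAPs, with the injured libraries above all others. Dok5, a substrate of Ret, was at 21.1, 23.8 and 25.1 in ASCs, 47.5 and 67.7 in FAPs, and 162, 179.8 and 166 in injured FAPs, which did not overlap.

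Among the proteases that cleave precursor neurotrophins or activate such a protease, 7 of 9 were tested. Plat encodes tissue plasminogen activator, which converts plasminogen to the protease plasmin, and the plasminogen gene Plg was at 0 in all libraries but ASC replicate 2, where it was at 1.13. Plat had values of 33949.6, 21914 and 28861 in ASCs, 3089 and 3086 in FAPs, and 3258, 2834 and 3489 in injured FAPs, with ASCs far above both. Mmp3 was at 17795, 19397 and 13301 in ASCs, 951 and 659 in FAPs, and 3900.3, 3902 and 3769 in injured FAPs, with ASCs highest and FAPs lowest, as for Gdnf. In ASCs against FAPs the log2 fold change was 3.17 for Plat and 4.39 for Mmp3, with adjusted p-values of 2.65e-07 and 7.3e-08 (limma with Benjamini-Hochberg adjustment). In injured FAPs against FAPs, Furin (0.80), Mmp3 (2.28) and Mmp9 were higher, and Pcsk5 (-0.98) and Pcsk6 (-1.70) lower. Mmp9, also higher in ASCs than in FAPs, had values of 21.1, 6.80 and 22.6 in ASCs, 0 and 2.82 in FAPs, at or under 3 reads, and 88.7, 149 and 118 in injured FAPs.

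The last list held 12 other neurotrophic factors and receptors, of which 11 were tested. In ASCs against FAPs 2 were higher, Lif and Vgf, and 5 lower, among them Cntfr, Clcf1, Mdk and Ptn. After injury Lif, Clcf1 and Manf were higher than in FAPs, and 5 genes were lower, among them Cntfr, Mdk, Ptn and Nenf. Of all genes tested, 47.2% were differentially expressed in the former comparison and 52.6% in the latter. Nrg1 and Vgf were also higher after injury. Their means in ASCs and FAPs were 5.42 and 2.37 for Nrg1 and 9.40 and 2.37 for Vgf. They passed the filter only through injured FAPs, which largely fixed their direction, so the genes higher after injury are not counted. Lif, the gene of leukemia inhibitory factor, had values of 3632, 2290.1 and 1444 in ASCs, 596 and 779 in FAPs, and 6727, 6687 and 7254 in injured FAPs, with no overlap and a log2 fold change of 3.33 in injured FAPs against FAPs (adjusted p = 6.03e-06, limma with Benjamini-Hochberg adjustment). Vgf, the gene of a secreted neuropeptide precursor that neurotrophins induce in neurons, was at 11.9, 11.3 and 5.02 in ASCs, 2.85 and 1.88 in FAPs, and 195, 201 and 227 in injured FAPs. Its FAP values corresponded to 3 reads or fewer, and the injured libraries stood apart from all others. Cntfr, the receptor of ciliary neurotrophic factor, was at 897, 547 and 854 in ASCs, 2217 and 2719.8 in FAPs, and 607, 553 and 425 in injured FAPs, with FAPs highest.

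Markers of cell types that the sorted populations could hold were given by list, with their summed normalized value in each library. The 8 stromal genes were above 0 in every library, with sums of 3001592, 2768805 and 3181965 in ASCs, 1563303 and 1695784 in FAPs, 686894, 745950.5 and 670391 in injured FAPs and 64186 in CD31+CD45+ cells. Col1a1 was the most abundant of them in all libraries apart from injured FAP replicate 3, where it was Col3a1. The summed level, most of it Col1a1 and Col3a1 in ASCs, was highest in ASCs and lowest in the CD31+CD45+ library. Pdgfra, a defining marker of FAPs, ran the other way among the sorted stromal cells, with means of 12988 in ASCs, 17755 in FAPs and 24051 in injured FAPs, and was at 119 in CD31+CD45+ cells. Its log2 fold changes against FAPs, -0.46 in ASCs and 0.44 in injured FAPs, were short of the fold threshold. Of the 8 stromal genes, 5 were higher in ASCs than in FAPs and 0 lower. In injured FAPs 1 was higher than in FAPs, Ly6a, the gene of Sca-1, and 5 were lower. Against ASCs 1 was higher in injured FAPs, Pdgfra, and 7 were lower. Among all genes tested, 47.2%, 52.6% and 50.8% were differentially expressed in these 3 comparisons, in the order given.

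**Figure D5:**
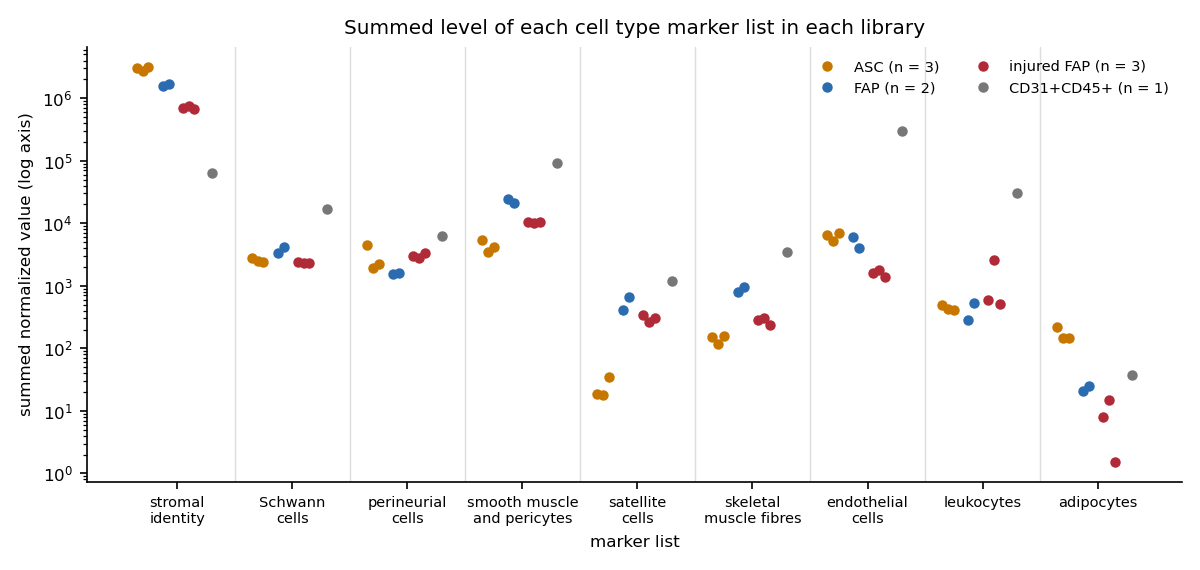
Summed normalized value (log axis) of each of 9 cell type marker lists in each of the 9 libraries, with a point for each library. The satellite cell list lies between 18.1 and 35.2 in ASCs and between 264 and 659 in FAPs and injured FAPs, and the smooth muscle and pericyte list lies at 24409 and 21435 in FAPs and at 10638 or less in ASCs and injured FAPs.

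Several lists were low in ASCs, as were Gfra1, Gfra2 and Ret. The satellite cell list summed to 18.4, 18.1 and 35.2 in ASCs, 407 and 659 in FAPs, 346, 264 and 307 in injured FAPs and 1205 in CD31+CD45+ cells. Of its 8 genes 5 were tested. Of these, Pax7, Myod1, Chodl and Fgfr4 had ASC means below 10 and passed the filter only through the other groups. Their lower values in ASCs were thus largely set by the filter, and no count is given. Megf10, with an ASC mean of 12.9, was lower in ASCs than in FAPs by a log2 fold change of -2.77. Pax7 and Calcr were at 0 in all ASC libraries, and the most abundant gene was Megf10 in ASCs and Chodl, also among the nearest genes of Gfra2, in the other libraries. The muscle fibre list, 7 of 8 genes tested, summed to 151, 117 and 156 in ASCs, 804 and 963 in FAPs, 289, 304 and 239 in injured FAPs and 3494 in CD31+CD45+ cells. It was led by Tnnt3 in ASCs and by Acta1 or Tnnt3 elsewhere. Tnnt3 was lower in ASCs than in FAPs by a log2 fold change of -1.56. The other tested fibre genes had ASC means below 10 and passed the filter only through the other groups, so that they are not counted. The part of satellite cells and muscle fibres in the receptor values was not tested.

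The smooth muscle and pericyte list moved with Ntf3 and Ngfr in that both FAP libraries were above ASCs and injured FAPs. It summed to 5399.8, 3459 and 4229 in ASCs, 24409 and 21435 in FAPs, 10495, 10110.5 and 10638 in injured FAPs and 90480.4 in CD31+CD45+ cells. Of its 10 genes 9 were tested, and 8 were lower in ASCs than in FAPs and 8 lower in injured FAPs than in FAPs. Both counts include Cnn1, which passed the filter only through FAPs, with means of 9.29 in ASCs and 4.89 in injured FAPs. Of all genes tested, 47.2% and 52.6% were differentially expressed in these comparisons, and 50.8% in injured FAPs against ASCs. Between injured FAPs and ASCs the list went another way than these genes, with 6 higher and 2 lower in injured FAPs and a median log2 fold change of 1.70, while Ntf3 and Ngfr had -0.51 and -0.36. Its most abundant gene was Abcc9 in ASCs, Rgs5 or Acta2 in FAPs and Cspg4 in injured FAPs, and Higd1b was at 0 in all ASC libraries. The Schwann cell list, 11 of 13 genes tested, summed to 2791, 2531 and 2373 in ASCs, 3370.0 and 4223 in FAPs, 2417, 2277 and 2277 in injured FAPs and 16681 in CD31+CD45+ cells. It was also highest in FAPs among the 8 libraries. Of the 11 genes, 6 were lower in ASCs than in FAPs, where 47.2% of all genes tested were differentially expressed. In injured FAPs 4 were lower than in FAPs, where this share was 52.6%, and 0 were higher in either comparison. In injured FAPs against ASCs 1 was higher, Mag, and 4 lower, where the share was 50.8%. Mag, also among the genes lower in ASCs than in FAPs, had an ASC mean of 2.11. It passed the filter only through the other groups, which largely fixed its direction in both comparisons with ASCs. Egr2 was its most abundant gene in these 8 libraries. The part of pericytes, smooth muscle and Schwann cells in the values of Ntf3 and Ngfr was not tested.

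The remaining lists followed other orders. The perineurial list, with 6 of 6 genes tested, summed to 4515, 1958 and 2206 in ASCs, 1527 and 1593 in FAPs, 2980.0, 2797 and 3319 in injured FAPs and 6312 in CD31+CD45+ cells, led by Slc2a1 in ASCs and injured FAPs and Itgb4 in the other libraries. It was higher in ASCs and injured FAPs than in FAPs in all libraries, as were Bdnf and Gdnf. However, only Slc2a1 of its genes was higher in ASCs, while 4 were lower. These 4 include Lypd2, which had an ASC mean of 7.55 and passed the filter only through the other groups. In injured FAPs against FAPs 1 was higher, again Slc2a1, and 1 lower, with a median log2 fold change of -0.25. Of all genes tested, 47.2% and 52.6% were differentially expressed in these comparisons, and 50.8% in injured FAPs against ASCs. The endothelial list summed to 6522, 5171 and 6972 in ASCs, 5949 and 3959.8 in FAPs, 1622, 1796 and 1368 in injured FAPs and 296214 in CD31+CD45+ cells, led by Tek in ASCs and FAPs and by Cdh5 in the others. Among the 8 libraries tested this sum was lowest in injured FAPs, as was Ntrk2, with 9 of its 10 genes tested and 5 lower and 2 higher than in FAPs. In ASCs the sum was almost all Tek, and 5 of the 9 genes were higher and 1 lower in injured FAPs than in ASCs. Against FAPs 5 were lower and 3 higher in ASCs, the latter being Tek and, with values of 0 in both FAP libraries, Emcn and Cldn5, which were also the 2 genes higher in injured FAPs than in FAPs. The adipocyte list, with 3 of 6 genes tested, summed to 217, 148 and 144 in ASCs, 20.9 and 25.4 in FAPs, 7.85, 14.7 and 1.53 in injured FAPs and 37.7 in CD31+CD45+ cells. Cfd, Adipoq or Plin1 was the most abundant gene of each library, and Retn was at 0 in FAPs and injured FAPs. The tested genes, Adipoq, Plin1 and Cfd, had means below 10 in FAPs and in injured FAPs. They passed the filter only through ASCs, which fixed their direction, and no count of them is given. The part of these cell types in the members' values was not tested.

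The leukocyte list summed to 497, 425 and 412 in ASCs, 286 and 534 in FAPs, 588, 2550.5 and 503 in injured FAPs and 29949 in CD31+CD45+ cells. Injured FAP replicate 2 stood above the other injured libraries, with Lyz2 as its most abundant leukocyte gene where theirs was Cd68, and among the injured libraries it was highest for Ntf3, Gfra1 and Ret and lowest for Bdnf, Gdnf, Ngfr and Gfra2. Of the 10 leukocyte genes 8 were tested, and 5 were higher and 0 lower in injured FAPs than in FAPs. All 5 were at 0 in both FAP libraries, so that this count rests on those zeros. Of all genes tested, 52.6% were differentially expressed in this comparison. In FAPs, 7 of the 10 leukocyte genes, among them Ptprc, Csf1r and Cd74, and 3 of the 10 endothelial genes, Emcn, Vwf and Cldn5, were at exactly 0 in both libraries. More widely, 13 genes were at 0 in both FAP libraries and at 20 or more in all 6 others, against 3 such genes for ASCs and 0 for injured FAPs, and 11 of the 13 were higher in CD31+CD45+ cells than in each of these 6. None of the 8 genes was among them. Whether a value of 0 in FAPs is a measured absence of reads was not tested.

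In the CD31+CD45+ library, which has no replicate, the values were 28.2 for Bdnf, 683 for Ntf3, 4.71 for Gdnf, 45.5 for Ngfr, 471 for Ntrk2, 84.7 for Gfra1, 348 for Gfra2 and 2941 for Ret. Gdnf, Ntrk2 and Gfra1 were below all 8 other libraries, Ntf3 was above them, and Bdnf, Ngfr, Gfra2 and Ret lay within the range of the others. The library also held Schwann cell, smooth muscle and muscle fibre markers at higher summed levels than the sorted stromal libraries, as given above, and their part in its Ntf3 and Ret values was not tested.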

How the data were processed

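RNA of sorted cells was sequenced by the study on a DNBSeq platform. The authors filtered the reads, checked them with FastQC, aligned them to mm10 (HISAT2), obtained counts by featureCounts of Subread and applied DESeq2. The table that the authors deposited holds a signal for each gene, namely its counts divided by a size factor of the library. With a tolerance of 0.01 reads, 100% of the values gave whole reads, and 2 columns of the table were empty. The strand setting and the treatment of reads with several matches were not stated. Here log2(value + 1) was fitted with limma 3.58.1 (R 4.3.3) as a mean per group over 8 libraries, the prior variance following a trend and p adjusted by Benjamini-Hochberg across all 13601 genes with a mean of 10 or more. The count tools edgeR 4.0.16 and DESeq2 1.42.0 on the recovered reads were alternatives. For ASCs against FAPs edgeR called 6450 genes and DESeq2 6412. The same numbers were 7303 and 7227 for injury in FAPs, and 7000 and 6865 between injured cells and ASCs. Each method was tested on simulated data. Further alternatives were the pseudocount (0.5, 8), the filter (none, mean of 50), the scaling (quantile, 75th percentile), a fit of only the compared groups, the replicate number as a block, the unadjusted p and leaving out each library. Coordinates and exon lengths came from GENCODE M21 (GRCm38), promoters from RefSeq. Named genes are the 8 members, pathway-list genes differentially expressed in the comparison described, the 3 genes most alike to each member, and marker genes that lead a list or are at 0; some genes that this rule takes are not reported here. Genes named as not differing, as below the filter, as passing it only through other groups or as going against the sum of their list were chosen after their values were seen. The marker lists covered stromal, satellite, smooth muscle and pericyte, Schwann, perineurial, muscle fibre, endothelial, leukocyte and adipocyte genes. The members and lists were chosen with earlier results of these data known.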

Additional observations from a re-analysis of the deposited data

Results flagged for a closer look

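Ntf3 in the CD31+CD45+ library had a normalized value of 683 (435 reads), above all 8 ASC, FAP and injured FAP libraries, of which the highest was FAP replicate 2 at 581. The library entered no comparison, has no replicate and was not tested.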

How the results depend on the processing

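Over 456 combinations of a single-gene fold change and an alternative, 446 kept the direction and the side of the thresholds, 5 passed them where the main value had not, 3 no longer passed and 2 changed sign. Many of these combinations could not move the fold change. The unadjusted p, the filters, the fit of only the compared groups and leaving out a library of the third group leave it as it is. Such settings can change only the p. The sign changes were Ntrk2 in ASCs against FAPs, -0.16 with quantile normalization, and Gfra2 in injured FAPs against FAPs, -0.0535 without FAP replicate 1. Leaving out each library gave ranges of 0.34 to 0.65 for that Ntrk2 value and of -0.05 to 0.31 for that Gfra2 value. The cause was not tested. Counts of genes called were within 1.5 times the main count under every alternative run. A common 75th percentile moved the median log2 fold change of all genes to -0.16 in ASCs against FAPs and to 0.14 in injured FAPs against ASCs. Deviations of same-numbered libraries from their group means had correlations from -0.054 to 0.045. With 2 FAP libraries, whose deviations mirror each other, and 3 libraries in the other groups, this could not decide whether the numbers pair samples. With the replicate number as a block, 6287, 7046 and 6861 genes and 7, 6 and 5 of the 8 members were called. A group left with 1 library was assumed to vary like the others. Depth limits Gdnf and Bdnf in FAPs, which rest on 8 to 24 reads.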
